A study of Macaca mulatta with 64 samples.

Results

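The positions described here are the 5′ ends of capped RNA that were listed, with a level above 0, in at least 24 of the 64 cap analysis of gene expression (CAGE) libraries of the rhesus macaque brain, leaving out the mitochondrial genome. There were 878 such positions among the 160389 positions of the series, or 0.547%, and they belonged to 699 of 13269 genes. The name "shared by most libraries" did not hold for all of them, since 418 of the 878 were listed in more than 32 libraries, 130 in at least 48 and 5 in all 64. They are called shared positions below. The number of libraries chose them, so it is given as a description with no test.

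The tissue came from 16 healthy, socially housed animals grouped by age and sex alone, with 2 males and 2 females at each of 1, 4, 10 and 20 years. There was 1 library for each region, age and sex, which gave 8 libraries per region, each standing for the pair of animals of that age and sex, so that differences between the animals of a pair are not seen. Of the 8 regions, the neocortical ones were OC (occipital), PC (parietal), TC (temporal), PCC (posterior cingulate) and PFC (prefrontal), the hippocampal ones were CA1 and DG (dentate gyrus), and CB was the cortex of the cerebellum. A library is named by its region, age and sex, so that CB 10F is the cerebellar library of the 10-year-old females. The 8 regions came from the same animals, and an age and sex together are called an animal group.

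CAGE reads the first bases of capped RNA, so that the 5′ end of a read marks where a transcript begins. Promoters with a TATA box often fix the start at 1 nucleotide, whereas broad promoters, common at housekeeping genes, spread starts over many nucleotides. Capped 5′ ends are also seen inside genes and near their 3′ ends, where alternative promoters and processed RNA are among the known sources. A start shared by many libraries is therefore a start used, or captured, at the same nucleotide again and again.

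The level of a position is given as the tag count scaled to the size of its library (TPM). Within 1 library the file held 139515 pairs of neighbouring listed positions of a gene, and 473 of them (0.339%) lay under 20 nt apart, each with 1 position of the pair at the annotated start. In effect each library listed 1 nucleotide for a cluster of starts. In addition, no position in the file lay 1 to 10 nt from an annotated start, whereas 5975 lay at 11 to 20 nt and 3281 exactly on it. Of the shared positions, 63 lay exactly on an annotated start, 0 at 1 to 10 nt and 43 at 11 to 20 nt. A position that read 0 in a library could thus belong to a cluster that was listed there at a neighbouring nucleotide. For this reason each comparison is given for the single nucleotide and again after positions of a gene under 20 nt apart were joined.

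The libraries listed 644 (CB 10F) to 23670 (CA1 of the 20-year-old females) positions, with a mean of 12036 in CA1 and 1789 in PCC. The number of tags, read from the smallest steps between values, was 1510000 to 6090000 per library (rounded), and the smallest listed level was 1.00 to 1.32 TPM. Summed TPM of cerebellar granule and Purkinje cell markers was 1104 to 2245 in CB against at most 771 elsewhere, and that of neocortical projection neuron markers was 0 to 2.24 in CB. The first sum came mainly from CBLN1, CBLN3 and NEUROD1 (CB means 750, 614 and 390 TPM), with ZIC1 and GABRA6 at 10.3 and 10.6 TPM. ZIC2 (0.25 TPM in CB, 96.3 in PCC) and PVALB (2.93 in CB, 22.3 in OC) went the other way. CA8 was at 32.9 TPM in CB and 33.9 in TC, and PCP2, PCP4 and RELN had no position. The dentate and CA1 marker sum was 2506 to 4300 in DG, of which HPCA made up most (mean 3024), and 308 to 1107 in CA1, within the range of the neocortical libraries. PROX1, the defining marker of dentate granule cells, was at 0 in DG. CB thus stood highest in the sum of its own list, though not in each gene of it. For CA1 and DG their list did not settle the label. The oligodendrocyte marker sum was 4987 to 8193 in CA1 and 736 to 4047 in DG. Fewer cells of a type and less RNA per cell cannot be told apart in such bulk tissue.

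A library listed 123 to 708 of the 878 shared positions, 481 ± 148 on average (SD, n = 64). By region the number was 579 ± 75.5 in OC, 565 ± 168 in TC, 525 ± 75.5 in CA1, 507 ± 135 in PFC, 497 ± 139 in PC, 475 ± 104 in DG, 425 ± 163 in CB and 279 ± 101 in PCC (SD, n = 8 each). PCC stood lowest both in shared positions and in all positions, and CA1, which listed by far the most positions in all, did not list the most shared ones. The shared positions held 41.3% of all listed TPM, and from 22.9% to 51.3% of that of a single library. At the threshold, 77 positions were listed in exactly 24 libraries and 75 in exactly 23, with medians of the mean level of 38.1 and 33.5 TPM. The strongest just inside were TUBG1 20 nt into the gene (γ-tubulin, which nucleates microtubules, mean 684 TPM), STX1A 74 nt upstream (a synaptic SNARE, 434 TPM) and ALDOA 14006 nt inside (a glycolytic enzyme, 348 TPM). Those just outside were ENSMMUG00000008277 at 27 nt (952 TPM), FKBP3 at 858 nt (293 TPM) and ENSMMUG00000031143 at 44 nt (238 TPM). TUBG1 was listed in 8 of 8 PFC libraries, at 1672 to 3906 TPM.

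**Figure D1:**
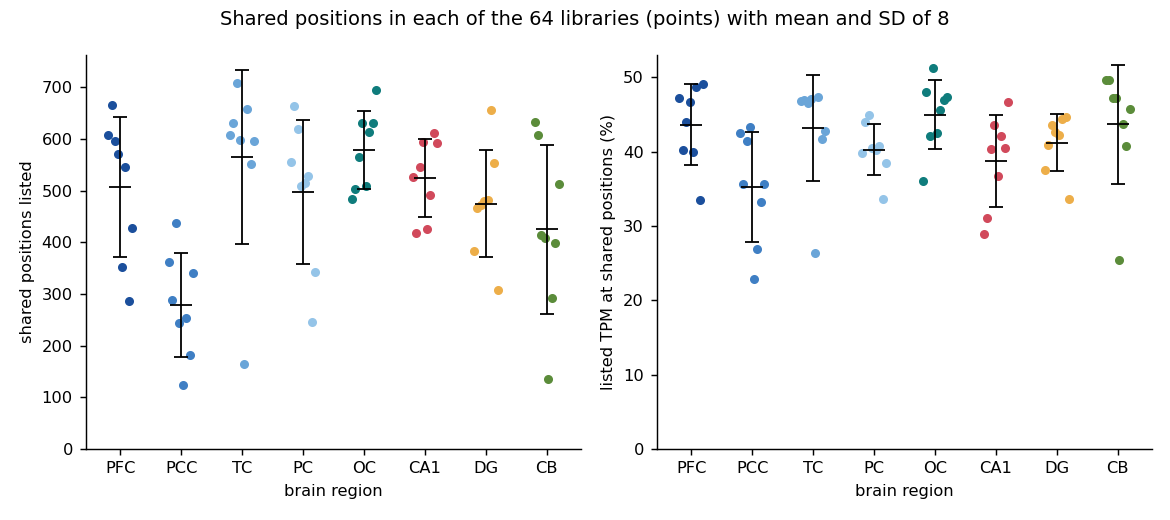
Number of the 878 shared positions listed in each library (left, y axis) and their share of the listed TPM (right, y axis, %), by region (x axis). Each point is 1 library and the bars give the mean and SD of 8. The PCC libraries lie lowest, with a mean of 279 positions against 579 in OC.

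The mean level of a shared position over the 64 libraries had a median of 65.9 TPM, with quartiles of 32.1 and 149 TPM and a range from 1.01 to 23766 TPM. Few positions carried most of the signal, since the 10 strongest held 35.4% and the 50 strongest 62.4% of the TPM of all 878. The strongest was HYPK (a chaperone-like partner of huntingtin), 8231 nt into a gene of 9804 nt (chromosome 7, 22193394, plus strand). It was listed in 47 libraries at a mean of 23766 TPM, and its region medians ran from 10568 TPM in CA1 to 36305 TPM in DG. After joining, HYPK was listed in all 64. GPX4, the peroxidase that removes lipid peroxides, followed at 36679 nt of an annotated 39427 nt, with 8815 TPM in 43 libraries. CLU (clusterin, a secreted chaperone) had 8436 TPM at 153 nt, and in CA1 it was listed in 8 of 8 libraries at 10494 to 20125 TPM. NEURL4, a centriolar protein, had 8326 TPM at 14038 of 16640 nt. ENSMMUG00000008245, 14 nt upstream, had a mean of 6458 TPM although this nucleotide was listed in only 25 libraries, with 0 of 8 in CA1. Its count after joining is not given here, so the other libraries may have listed a neighbouring nucleotide. The remaining 5 of the 10 were ENSMMUG00000005157 at 103 nt (7289 TPM), SNCB at 21757 nt (β-synuclein of the presynapse, 5157 TPM), CA11 at 512 nt upstream (a carbonic anhydrase relative, 5010 TPM), GAP43 at 207 nt (growth cone protein, 4480 TPM) and ARL6IP4 at 1506 nt (a splicing-related nuclear protein, 4448 TPM). Each position is tied to 1 gene, and whether another gene overlaps it was not tested. Distances and the interior class rest on the annotated gene intervals. Whether these intervals are longer than the transcripts was not tested either. At the other end 56 shared positions had a mean under 10 TPM.

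Shared positions lay nearer to annotated starts than the other positions when each position was counted once. Of the 878, 143 (16.3%) lay upstream of the annotated start, 181 (20.6%) within its first 100 nt, 101 (11.5%) at 100 to 500 nt, 378 (43.1%) in the gene interior and 75 (8.54%) in the last 500 nt or beyond. Among the other positions the shares were 13.8%, 12.2%, 9.53%, 57.4% and 7.07%. Within 100 nt of the start on either side lay 281 (32%) of the shared and 21% of the other positions. The interior was nevertheless the largest class of shared positions, and 134 of the 878 (15.3%) fell in the last 10% of the annotated gene length.

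The relation to the number of libraries was not one-directional. Interior positions made up 62.0% of those listed in 1 library, 44.7% of those in 2 to 7, 37.5% in 8 to 23, 38.7% in 24 to 31, 45.4% in 32 to 47 and 51.5% in 48 to 64. The share within 100 nt of the start ran the other way, at 17%, 31.9%, 41.2%, 36.1%, 30.6% and 22.3% in the same order. The widest shared positions were thus as often interior as not. When positions were first joined, 2287 clusters were listed in at least 24 libraries, and 44.1% of them lay within 100 nt of the start and 33.7% in the interior.

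**Figure D2:**
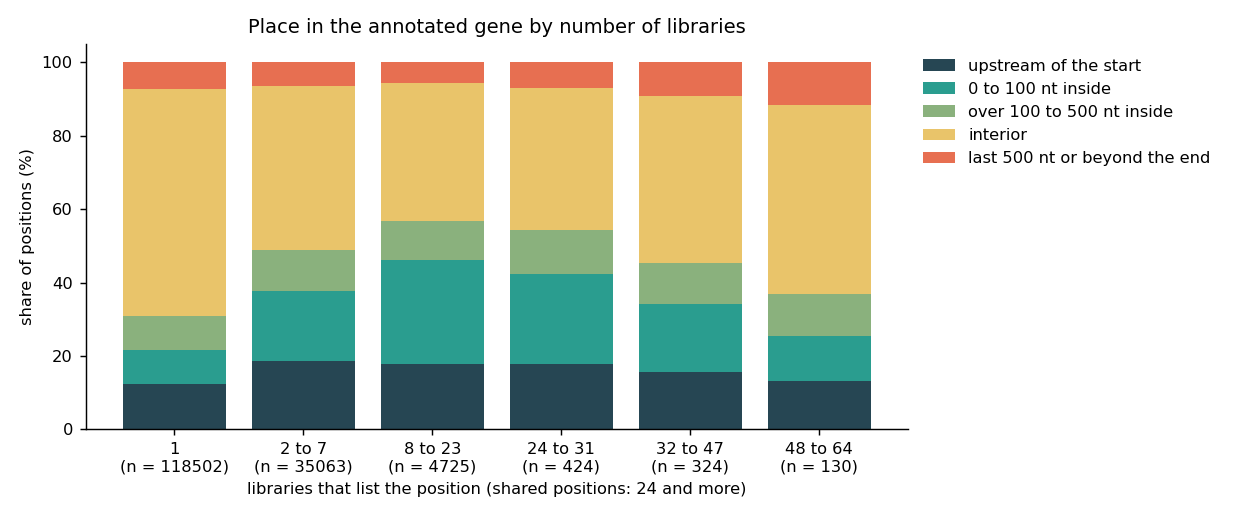
Share of positions in each gene class (y axis, %, stacked colours) by the number of libraries that list the position (x axis). The share within 100 nt of the start is highest at 8 to 23 libraries (41.2%) and falls to 22.3% at 48 to 64 libraries, while the interior share rises from 37.5% to 51.5%.

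Within single libraries the difference from the other positions was small. On average 31.4% of the shared and 31.8% of the other listed positions of a library lay within 100 nt of the start, a difference of −0.453 percentage points (SD 1.17 over 8 animal groups), positive in 2 of 8 groups. Weighted by TPM the shares were 28.1% and 38.3%, and the shared positions were lower in 8 of 8 groups. So by signal, shared positions were the less start-bound set in these libraries. The direction by count turned with the threshold: it was +3.80 points for positions in at least 16 libraries and −4.37 points for those in at least 32.

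The share of the shared positions' TPM within 500 nt of the start was 43.4% in CB and 50.8% over the other 7 regions, a difference of −7.37 points (SD 5.58) that was negative in 7 of 8 animal groups. Within 100 nt it was −2.72 points (SD 6.08) and positive in 2 of 8. Without HYPK, the strongest position, the difference within 500 nt was −7.27 points (SD 4.37) and negative in 8 of 8. Hippocampus and neocortex had 50.3% and 51%, a difference of −0.617 points that was positive in 2 of 8 groups and changed sign with the threshold.

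Most genes had 1 shared position. Of the 699 genes, 579 had 1, 84 had 2, 25 had 3 and 11 had at least 4, and neighbours within a gene were a median of 325 nt apart. A shared position was the main position of its gene in 619 of 878 cases (70.5%) and held a median of 44.4% of the gene's TPM. CLU had 6, of which the position at 153 nt was far above the next, at 3791 nt (674 TPM). SNCB also had 6, of which 4 lay between 27332 and 27520 nt, near the 3′ end of its 27932 nt. SYP (synaptophysin, a synaptic vesicle membrane protein) had 5, led by 11157 nt with 2533 TPM in 62 libraries and 68.4% of the gene's TPM. TAOK2, a kinase, had 6 at 17.3 to 121 TPM, but its annotated interval spans 1595943 nt, so positions in it may belong to other genes.

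The 878 positions in 64 libraries gave 56192 values, of which 30811 (54.8%) were above 0. Of the 25381 values at 0, 30.4% came from libraries that listed another nucleotide of the same joined cluster, 33.9% from libraries that listed the gene farther away, and 35.7% from libraries that did not list the gene at all. The last share was 51.6% in PCC, 44.6% in CB and 13.2% in CA1, whereas in CA1 48.4% of the zeros fell where the gene was listed elsewhere. Another nucleotide of the joined cluster was listed for 38.4% of the zeros in CA1, 39.9% in OC, 36.1% in TC and 19.0% in PCC. CA1 thus stood apart in zeros with the gene listed farther away, and PCC in zeros with the gene not listed. The part of the number of positions listed per library in this was not tested. After joining, the median number of libraries rose from 32 to 44 and the number listed in all 64 from 5 to 24.

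By region, 694 of the 878 were listed at least once in all 8 regions, and the rest in 7 (165), 6 (18) or 5 (1). Positions listed in 0 of 8 libraries of a region numbered 103 in PCC, 41 in CA1, 35 in CB, 14 in DG, 4 each in PC and OC, 3 in PFC and 0 in TC. Those listed in 8 of 8 numbered 126 in OC, 112 in CA1, 64 each in TC and DG, 63 in PFC, 50 in PC, 27 in CB and 21 in PCC. CA1 was high in both counts, since many positions were either always or never listed there. Pairs of libraries correlated over the shared positions with a median Pearson r of 0.258 (log2 scale), 0.330 within a region and 0.419 within CA1. These are correlations across positions, which are not replicates.

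The 5 positions listed in all 64 libraries give levels with no zeros. SNCB, on chromosome 6 (173113369, minus strand), had a lowest, median and highest level of 132, 482 and 664 TPM in CA1, against 2807, 4534 and 7622 TPM in DG and 3183, 9890 and 18455 TPM in CB. In OC the 3 values were 6186, 8485 and 9655 TPM, and every DG value of SNCB lay above every CA1 value. RBM42, an RNA-binding protein, at 8545 of 9049 nt (chromosome 19, 42124666, plus strand), had 567, 1018 and 2518 TPM in CA1, 2984, 5081 and 6451 TPM in DG and 4434, 8664 and 12608 TPM in CB. Here too CA1 lay wholly below DG, and CB had the highest median of the regions. ENSMMUG00000000612, 3177 nt into a gene of 3676 nt (chromosome 20, 383969, plus strand), had 303, 354 and 1254 TPM in CA1, 1810, 2668 and 3403 TPM in DG, 1638, 2859 and 4560 TPM in CB and 2786, 3721 and 8132 TPM in PCC. ENSMMUG00000005157 at 103 nt (chromosome 11, 84751687, minus strand) was the strongest of the 5 and the most even, with medians from 3823 TPM in CA1 to 11914 TPM in OC. ENSMMUG00000011073 at 592 nt (chromosome 7, 165374585, minus strand) had 609, 916 and 1949 TPM in CA1 and 2371, 4659 and 16277 TPM in PC, and in CB it ran from 1.38 to 3269 TPM. CA1 had the lowest median of the 8 regions for SNCB, RBM42, ENSMMUG00000000612 and ENSMMUG00000005157, and for ENSMMUG00000011073 PCC lay lower, at a median of 819.9 TPM.

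**Figure D3:**
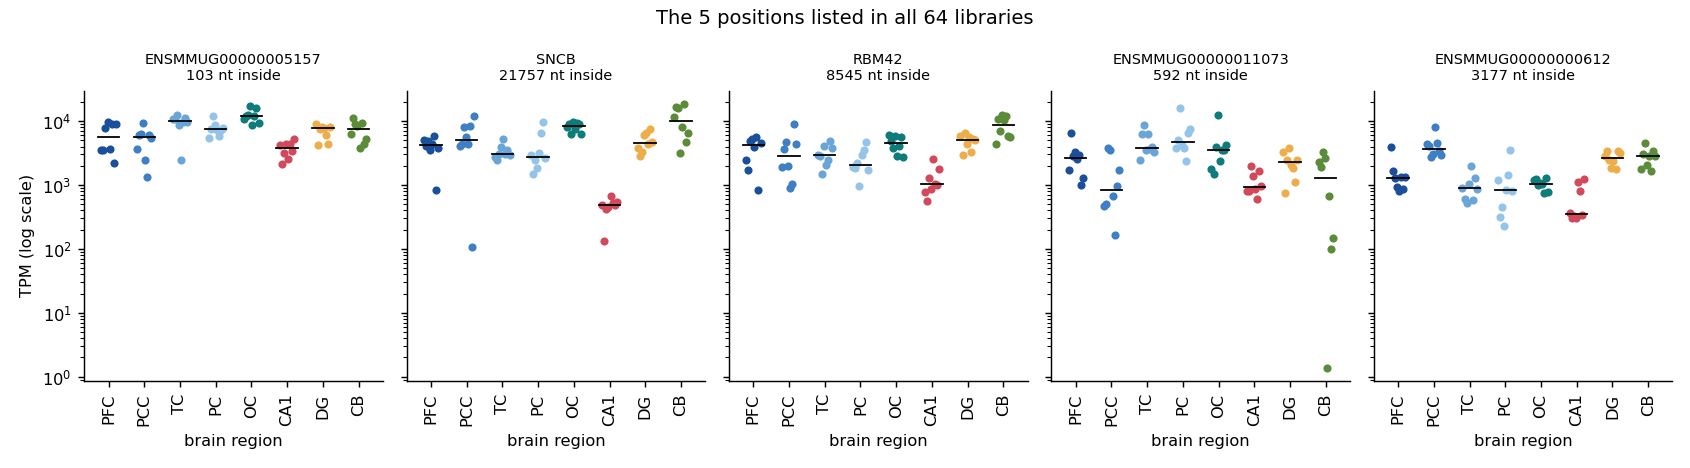
Level of the 5 positions listed in all 64 libraries (y axis, TPM, log scale) by region (x axis), 1 point per library and a bar at the median of 8. The CA1 points lie below those of DG for SNCB (132 to 664 against 2807 to 7622 TPM) and RBM42.

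Each of these 5 was compared between CA1 and DG, CB and the other 7 regions, and hippocampus and neocortex, with an exact two-sided sign-flip test over the 8 animal groups. This made 15 tests, with no adjustment over them, and the smallest exact p that 8 groups allow is 0.0078125. On the log2(TPM + 1) scale CA1 minus DG was −3.44 for SNCB (SD 0.54, lower in 8 of 8, exact p = 0.0078125), −2.08 for RBM42, −2.35 for ENSMMUG00000000612 and −0.91 for ENSMMUG00000005157, each lower in 8 of 8 with the same p. ENSMMUG00000011073 was at −0.91 and lower in 6 of 8 (exact p = 0.046875). In CB, RBM42 was 1.54 and ENSMMUG00000000612 1.07 above the other regions in 8 of 8 groups (exact p = 0.0078125 each), SNCB 1.59 above in 7 of 8 (exact p = 0.015625), and ENSMMUG00000005157 at 0.08 (exact p = 0.671875). Hippocampus minus neocortex was −1.53 for SNCB and −0.97 for ENSMMUG00000011073, lower in 8 of 8 groups for both (exact p = 0.0078125 each). In the limma fit across all 5669 positions, described next, none of the 15 passed at the single nucleotide, and SNCB in CA1 against DG had an adjusted p of 0.104 (Benjamini-Hochberg).

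For all shared positions, limma was fitted to log2(TPM + 1) of the 5669 positions listed in at least 8 libraries, with the animal group as a block and Benjamini-Hochberg adjustment over all of them. A position is called at an adjusted p under 0.05, and the p-values measure the spread between these libraries. Between the 8 regions 125 of 878 (14.2%) differed, and 6.46% of all positions tested did. These 125 had their highest mean in OC (36), CA1 (34), PFC (16), TC (15), CB (9), DG (8), PC (6) or PCC (1), and 58 of them had their lowest mean in PCC. Over all 878 the highest mean was in OC (203), CA1 (143), TC (123), PFC (122), CB (99), DG (95), PC (73) or PCC (20). PCC was lowest for 384 of the 878, so a low PCC was not particular to the called positions. By class they were 32 of 143 upstream, 22 of 181 in the first 100 nt, 14 of 101 at 100 to 500 nt, 52 of 378 interior and 5 of 75 gene-end positions. After joining, 269 of the 861 clusters that held shared positions differed between regions, beside 21.9% of all clusters tested.

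In the cerebellum 2 shared positions were higher (background 0.353% of positions tested) and 3 lower (background 0.0529%). Each background counts the shared positions as well. The 3 lower ones were all those called lower, with 0 of the 4791 other positions, so that background is no separate reference. Shared positions were chosen by their libraries above 0, so this contrast with the others is not a result about them. CALB1, calbindin, the calcium buffer of Purkinje cells, was highest there at 138 nt upstream (chromosome 8, 92724804, minus strand). It was listed in 8 of 8 CB libraries at 529, 1337 and 2120.0 TPM (lowest, median, highest) and in 37 of the 56 others at a median of 23.4 and at most 577 TPM. The log2 difference was 6.37 (SE 1.08, limma adjusted p = 0.0001). Its joined cluster held the same values as the position, so joining was no further check here. The other was ENSMMUG00000019171, 20 nt upstream (log2 3.85, adjusted p = 0.0267). Of those lower, ARL6IP4 was listed in 2 of 8 CB libraries, at most at 209 TPM, and in 48 of 56 others at a median of 3767 TPM. Its log2 difference was −9.32 (SE 1.30, adjusted p = 9.15e-07) and after joining −5.28 (SE 0.82, adjusted p = 6.93e-06). NICOL1 at 44 nt upstream was at 0 in all 8 CB libraries and listed in 34 of 56 others (adjusted p = 0.0267), but at a log2 difference of −3.69 it missed the threshold after joining (adjusted p = 0.0502). S100A1, a calcium-binding protein of muscle and brain, was listed at 312 nt in 1 of 8 CB libraries and in 34 of 56 others (adjusted p = 0.0347), and after joining the difference was −1.39 (adjusted p = 0.57). With quantile normalization the split was 7 higher and 3 lower.

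Between hippocampus and neocortex 8 shared positions were higher in hippocampus (background 1.68%) and 7 lower (background 0.123%). The 7 lower ones were again all those called lower, with 0 of the 4791 other positions, so that background is no separate reference either. ID4, an inhibitor of helix-loop-helix factors, was listed 380 nt upstream in 16 of 16 hippocampal libraries (30.9, 436 and 1727 TPM) and in 24 of 40 neocortical ones (log2 4.26, SE 0.95, limma adjusted p = 0.00458). The ID4 means were 555 TPM in CA1 and 514 in DG, but also 477 in PFC, 275 in TC and 551 in CB. In PC, OC and PCC they were 58.1, 55.6 and 3.34 TPM, and PCC had 173 TPM at 378 nt upstream. GFAP, the astrocyte filament, was listed 14 nt upstream in 13 of 16 (median 269 TPM) and in 26 of 40 (median 8.37 TPM), with a log2 difference of 3.48 (adjusted p = 0.0253). DKK3 of the Dickkopf family at 499 nt (log2 3.80, adjusted p = 0.00927), MBP, myelin basic protein, at 33217 nt (log2 3.30, adjusted p = 0.0317), the calcium sensor HPCA at 7457 nt (log2 2.86, adjusted p = 0.0207) and the RNA-binding protein CELF4 at 261 nt upstream (log2 2.90, adjusted p = 0.0328) were higher as well. HPCA and CELF4 each rested on 1 hippocampal region. The HPCA mean was 162 TPM in DG but 14.6 TPM in CA1, below PFC (31.3 TPM). That of CELF4 was 70.3 TPM in CA1 but 17.6 TPM in DG, below PCC (23.5 TPM). For MBP at 33217 nt the OC mean (169 TPM) lay above that of CA1 (137 TPM). The lower ones were led by TESPA1 at 9767 nt, listed in 1 of 16 hippocampal libraries at 24.1 TPM and in 28 of 40 neocortical ones with a median of 132 and a highest level of 890 TPM (log2 −4.92, SE 0.87, adjusted p = 0.000171). Its neighbour at 9727 nt was lower too (log2 −3.38, adjusted p = 0.0102). DYNLL1, a dynein light chain, at the annotated start (log2 −4.25, adjusted p = 0.0219) and EPB41L3, a membrane skeleton protein, at 159056 nt (log2 −3.04, adjusted p = 0.0486) were also called when joined, whereas CLDN15 at 37 nt upstream (log2 −4.12, adjusted p = 0.0207) was not (joined adjusted p = 0.405). The DYNLL1 position was listed in 0 of 8 CA1 and 2 of 8 DG libraries. Its mean in DG was nevertheless 598 TPM, against 554 TPM in PFC. In all, 7 of the 8 higher and 4 of the 7 lower calls were also called after joining. For EPB41L3 the joined cluster held the same values as the position, so its joined call was no further check. The EPB41L3 mean in PCC was 0 TPM, below CA1 (3.68 TPM) and DG (13.5 TPM), while the other 4 neocortical regions lay at 44.0 to 146 TPM. With quantile normalization 22 were higher and 10 lower.

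Between CA1 and DG 15 were higher in CA1 (background 2.89%) and 12 lower (background 0.459%). Of the 15 higher, 10 lay upstream of the annotated start, and 6 were also called after joining. Among these 6, CABP1, a neuronal calcium-binding protein, at 189 nt had 86.5, 242 and 408 TPM in CA1 and at most 79.8 TPM in DG (log2 6.37, limma adjusted p = 0.00336), without overlap. TUBA1A, an α-tubulin, at 55808 nt of an annotated 59422 nt (log2 4.84, adjusted p = 0.00681), FAU, a ribosomal protein fusion, at 572 nt (log2 5.97, adjusted p = 0.0353) and the co-chaperone DNAJA1 at 33 nt (log2 4.91, adjusted p = 0.0247) were called both ways. The joined cluster of TUBA1A held the same values as its position, so that joined call was no further check. Not called after joining were, among others, SRP14 (signal recognition particle), SNF8 (endosomal sorting), DYNC1I2 and NUDC (dynein complex and its regulator), CLTB (clathrin light chain) and INO80B (chromatin remodelling). DYNC1I2 at 290 nt, for example, had 1451, 2206 and 2753 TPM in CA1 and was listed in 3 of 8 DG libraries (log2 7.29, adjusted p = 0.0128), and after joining its adjusted p was 0.111.

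The 12 lower in CA1 than in DG behaved differently on joining, since 11 were called again. Among them, the joined clusters of ARHGEF17, ENSMMUG00000019192 and the upstream position of ENSMMUG00000005157 held the same values as the positions. Joining was no further check for these. NNAT, neuronatin, at 1801 nt was listed in 3 of 8 CA1 libraries at up to 49.1 TPM and in 8 of 8 DG libraries at 147, 364 and 953 TPM, without overlap (log2 −6.61, SE 1.44, limma adjusted p = 0.00249). EWSR1, an RNA-binding protein, at 32137 nt had at most 34.1 TPM in CA1 and 128, 193 and 477 TPM in DG, again without overlap (log2 −4.73, adjusted p = 0.0392). GAP43 at 207 nt (log2 −7.68, adjusted p = 0.0162), USE1, a SNARE of the endoplasmic reticulum, at 26 nt (log2 −7.32, adjusted p = 0.0194), EMC6, a membrane insertase subunit, at 27 nt (log2 −6.23, adjusted p = 0.00421), IFI6, interferon-induced, at 3885 nt (log2 −4.96, adjusted p = 0.0121), ARHGEF17 at 60402 nt (log2 −4.86, adjusted p = 0.0487) and HPCA at 7457 nt (log2 −4.25, adjusted p = 0.0356) were also lower. At 46 nt upstream of ENSMMUG00000005157 a second shared position was at 0 in all 8 CA1 libraries and had a median of 789 TPM in DG, listed in 7 of 8 (adjusted p = 0.00249), whereas the position at 103 nt of the same gene was listed in all 8 of both. CA1 and DG also differed in listed positions (means 12036 and 3609), tags (means of 5370000 and 3480000, rounded) and the oligodendrocyte marker sum given above. The part of these in the differences was not tested.

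**Figure D4:**
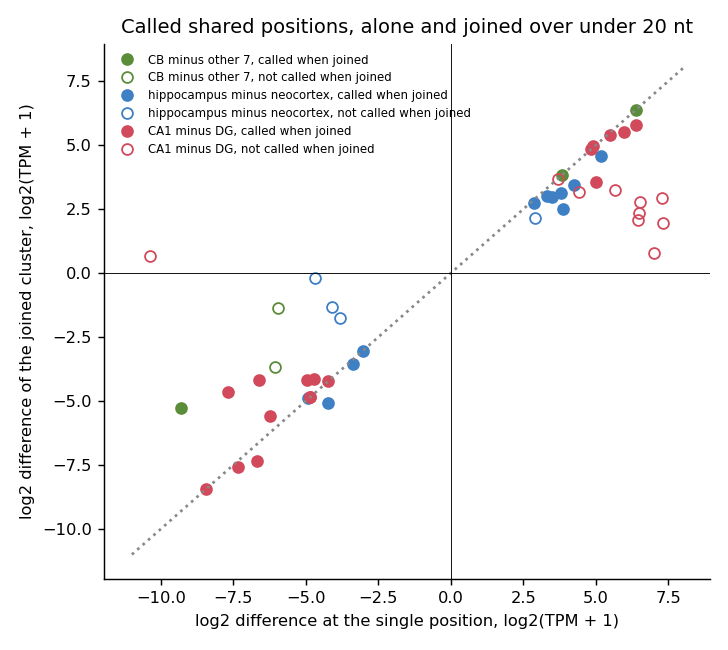
Log2 difference after joining positions under 20 nt apart (y axis) against that of the single nucleotide (x axis) for the 47 called differences between regions. Filled points were also called after joining and open points were not; S100A1 in CA1 against DG crosses 0, from below at the nucleotide to 0.66 when joined.

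S100A1 was the 1 call of 47 whose direction reversed on joining. At 312 nt (chromosome 1, 132143821, plus strand) it was at 0 in all 8 CA1 libraries and listed in 7 of 8 DG libraries at a median of 3600 TPM (limma adjusted p = 0.000376). Within the same cluster CA1 listed the nucleotide at 330 nt in 8 of 8 libraries, at a mean of 5593 TPM. The joined cluster had means of 5593 TPM in CA1 and 3769 TPM in DG, a log2 difference of 0.66 (SE 1.01, adjusted p = 0.701). The listed nucleotide of S100A1 thus differed between regions while the cluster level was not called different. The shared nucleotide was listed in 8 libraries of OC, 7 each of PFC and DG, 6 of PC, 4 of TC, 2 of PCC, 1 of CB and 0 of CA1, and a further nucleotide, at 326 nt, in 5 of PCC and 4 of CB. SRP14 (chromosome 7, 18390521, minus strand) was listed at −46 nt in 8 of 8 CA1 and 7 of 8 TC libraries and in 3 of 8 DG libraries, and the other 5 DG libraries listed −51 nt.

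**Figure D5:**
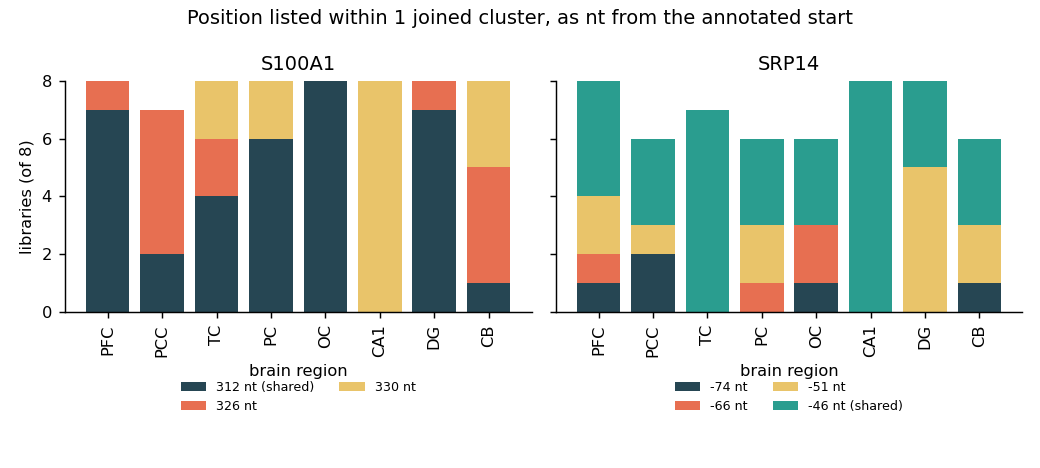
Libraries of 8 (y axis) that list each nucleotide of the joined clusters of S100A1 and SRP14, by region (x axis), for nucleotides listed in at least 4 libraries. CA1 lists 330 nt of S100A1 in 8 of 8 libraries and its shared nucleotide, 312 nt, in 0 of 8, while the shared nucleotide of SRP14, −46 nt, is listed in 8 of 8 CA1 and 3 of 8 DG libraries.

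Joining also brought calls that single nucleotides did not, by the same limma fit and an adjusted p under 0.05 over 7479 joined clusters. The set tested thus differed from the 5669 single positions, and its part in the calls was not tested. The counts below include clusters whose shared position was already called. In CB, 9 clusters with shared positions were higher (background 0.642%) and 19 lower (background 0.548%). Examples picked after their values were seen follow. Each is a joined cluster named by its shared position, and the counts and levels are those of the cluster. The NRGN cluster (neurogranin of the forebrain postsynapse, 117 nt upstream) was at 0 in all 8 CB libraries and listed in 56 of 56 others. The nucleotide at 117 nt upstream was itself listed in 24 libraries. The SST cluster (somatostatin, 88 nt upstream) was at 0 in CB and listed in 44 of 56 others. VGF, CHGA and CAMKV were likewise at 0 in CB. HPCA at 7751 nt was listed in 2 of 8 CB libraries and in 47 of 56 others (log2 −6.43, SE 1.13). Higher in CB were CHGB, a secretory granule protein, at 11770 nt (log2 4.66) and 11965 nt (log2 4.25), BEX1 at 221 nt (log2 4.50), SIRT6 (log2 4.09) and CALB1. SIRT6 had the same log2 difference at its single nucleotide, though not called there, and CALB1 was already called there. In hippocampus 19 were higher (background 6.91%) and 19 lower (background 0.521%) than in neocortex. MBP went both ways on the log2 scale, with 38884 nt higher (16 of 16 hippocampal and 38 of 40 neocortical libraries, log2 2.05), 33217 nt higher (log2 2.99) and 38606 nt lower (9 of 16 and 40 of 40, log2 −2.67). The mean TPM of the 38606 nt cluster was nevertheless 470 in hippocampus and 396 in neocortex. CA1 and DG differed in how often they listed it, as given below. GAP43 at 207 nt was lower (log2 −3.66).

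In CA1 against DG 31 clusters were higher (background 13.9%) and 56 lower (background 1.68%). Among the lower ones, picked after their values were seen, were SNCB at 21757 nt (log2 −3.44, SE 0.87), SYP at 11157 nt (log2 −4.26, SE 0.98) and GAPDH at 3476 nt (log2 −3.77). For SNCB the log2 difference at the single nucleotide was −3.44 as well. GPX4 at 36679 nt was higher in CA1, with means of 26700 and 6383 TPM (log2 2.15). MBP differed between its joined clusters. The cluster of 38606 nt was listed in 1 of 8 CA1 libraries against 8 of 8 in DG (log2 −7.45). The cluster of 38527 nt was listed in 2 of 8 against 8 of 8 (log2 −4.34). The mean TPM of the latter was nevertheless 154 in CA1 and 137 in DG, since the listed CA1 libraries were high. At the single nucleotide of 38884 nt the medians were 5607 TPM in CA1 and 406 TPM in DG, a difference that was not called (limma adjusted p = 0.226).

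Age and sex gave no calls among the shared positions. At 10 and 20 years against 1 and 4 years, limma on the 8 animal-group means called 0 of 878 (background 0.0353%), with 104 at an unadjusted p under 0.05 and a smallest adjusted p of 0.341. The median log2 difference was −0.56 over shared and −0.19 over all tested positions. Beside this, the older groups listed fewer shared positions per library, 438 ± 73.0 against 525 ± 17.2 (SD over 4 animal groups each), and its part in the medians was not tested. Between males and females 0 were called (background 0%), with 48 at an unadjusted p under 0.05, and the CB difference by age also called 0 (background 0%), with 81.

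Gene lists grouped by function show which roles the shared positions covered. Of 60 ribosomal protein genes with any position 14 had a shared one (17 positions), led by RPL4 at 3106 nt, listed in 63 libraries at 2253 TPM. Of 42 nuclear genes of the respiratory chain and ATP synthase 14 had one (16 positions), with NDUFA6 at 23 nt upstream at 1179 TPM in 57 libraries. Over all genes 5.27% had a shared position. Proteasome and ubiquitin genes had 17 positions in 10 of 96 genes, with PSMC5 at 3722 nt at 121 TPM and PSMB1 at 33 nt at 116 TPM. Chaperone and redox genes had 18 in 8 of 21, with PRDX2, a peroxiredoxin, at 61 nt at 1218 TPM in 60 libraries beside GPX4 and CLU. Splicing and RNA-binding genes had 11 in 6 of 29, with SON at 445 nt at 2225 TPM.

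Among the neuronal and energy lists, synaptic vesicle genes had 24 shared positions in 10 of 33 genes, and 14 of the 24 were interior. Postsynaptic genes had 9 in 6 of 23, among them HPCA at 7711 nt (301 TPM) and PPP1R1B, DARPP-32 of dopamine signalling, at 99 nt upstream (272 TPM). Cytoskeleton and axon genes had 16 in 10 of 29, with BEX1 at 392 nt (1169 TPM) and STMN4, a stathmin, at the annotated start (464 TPM). Glycolytic genes had 8 in 4 of 18, of which 7 were interior and 0 within 500 nt of the start, with GAPDH at 3476 nt (706 TPM, 63 libraries) and 2634 nt (543 TPM, 59 libraries). In these 4 lists the region calls of single nucleotides numbered 4 of 24, 3 of 9, 2 of 16 and 0 of 8, beside 14.2% of all shared and 6.46% of all tested positions.

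Of the cell type lists, that of oligodendrocytes had 10 shared positions in 5 of 12 genes, of which 5 differed between regions, beside the same 14.2% and 6.46%. In hippocampus against neocortex 1 of these 10 was called higher and 0 lower, with a median log2 difference of −0.41. They were led by MBP at 38884 nt (953 TPM), 38606 nt (125 TPM) and 38527 nt (89.3 TPM). The astrocyte list had 6 in 4 of 13, of which 1 was called higher in hippocampus (median log2 0.29 over the 6), with NDRG2 at 6261 nt (269 TPM), 6174 nt (177 TPM) and 6346 nt (148 TPM). The interneuron and neuropeptide list had 6 in 4 of 18, among them CHGB at 11965 nt (274 TPM), SST (99.3 TPM) and CHGA at 8161 nt (65.3 TPM). The microglial list had CTSB, a lysosomal protease, at 7600 nt (179 TPM) and CD74 at its annotated start (25.2 TPM), the cerebellar list CALB1 and SNCG, the projection neuron list both TESPA1 positions, and the endothelial and choroid plexus list 0 in 6 genes.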

How the data were processed

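CAGE libraries of poly(A) RNA from 8 brain regions were sequenced on a NextSeq 500. The authors trimmed reads with FASTX-Toolkit, mapped them to the macaque Ensembl genome with TopHat2, kept unique reads, took the 5′ end of each as a start, scaled tags to library size (TPM, treated here as RPM) and clustered starts under 20 bp apart within a library. The deposited RPM values are not counts, so no count model was used. Coordinates are those of the deposited table, gene symbols were matched for 10069 of 13269 genes, and no sequence is shown.

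Distances to the annotated start and end were computed on the gene's strand. log2(TPM + 1) of the 5669 positions listed in at least 8 libraries was fitted in limma 3.58.1 (R 4.3.3; trend, robust, two-sided, Benjamini-Hochberg) on region with the 8 animal groups as a block, since the regions came from the same animals. Age and sex were fitted on the 8 animal-group means. Joined values sum positions of a gene under 20 nt apart. A log2 difference understates the change of low positions, and none is given where a group is at 0 throughout. Exact sign-flip tests went through all sign patterns of the 8 animal groups with numpy 2.4.6. For the shares near the start they served only to judge the alternatives, and no p is given, since positions were chosen with results known. The exact p of the positions listed in all 64 libraries are unadjusted and carry the same limit. The scripts were tested on simulated data.

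The positions and gene lists were chosen with earlier results of these data known. Named positions were those in all 64 libraries, the 10 with the highest mean TPM, the 6 largest called changes with a symbol each way, up to 3 per list, the 5 genes with the most positions, 3 on each side of the threshold, the strongest of a class and those at 0 in 1 region; S100A1, SRP14 and the joined examples were picked with their values in view. Alternatives were another pseudocount, normalization, filter, membership threshold, distance and block, joined positions and each animal group left out. A further 14 mitochondrial positions passed the threshold and were left out. The steps between low values gave the tag numbers, and no interval was drawn from them. Some named positions that this rule picks are not reported here.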

Additional observations from a re-analysis of the deposited data

Results flagged for a closer look

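In each region the 8 libraries were examined for a single library far from the other 7, over 3 library measures and the 5 positions listed in all 64 libraries. This made 64 groups, of which 16 values stood apart, and chance gives about 1 in 20 groups. TC 10F listed 164 shared positions, with 26.3% of its listed TPM at them and 35.8% of their TPM within 500 nt of the start. CB 10F had 25.4% of its listed TPM at shared positions. In PFC 20F 73.3% of the shared positions' TPM lay within 500 nt of the start.

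Among single positions, ENSMMUG00000005157 was low in TC 10F (2441 TPM) and high in PC 4F (12125 TPM). RBM42 was high in PCC 20F (9141 TPM). ENSMMUG00000000612 was high in PFC 1F (3966 TPM), PCC 10F (8132 TPM) and PC 20F (3477 TPM). SNCB was low in PFC 20F (834 TPM) and in CA1 1M (132 TPM). ENSMMUG00000011073 was high in PFC 1M (6611 TPM), PC 4F (16277 TPM) and OC 4M (12389 TPM).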

How the results depend on the processing

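Of 27 named region differences, 27 kept their call with positions in at least 16 libraries, 26 with quantile normalization, 26 with equal listed totals, 25 without the block, 24 with a pseudocount of 0.25 TPM, 16 when joined, 5 with no filter on libraries and 13 (without 4F) to 21 (without 10F) with 1 animal group left out, and S100A1 in CA1 against DG reversed when joined (0.66). The 5 CB calls became 8 without CB 10F, 9 without CB 10F and TC 10F (both chosen after seeing the data), 2 with no filter, 13 at 16 libraries, 28 joined and 10 with quantile normalization. The 15 hippocampus calls became 1 with no filter, 38 joined and 32 with quantile normalization, the 27 CA1 calls 2 and 87 with no filter and joined, and the 125 region calls 8 with no filter, 202 at 16 libraries and 269 joined. More or fewer positions were tested in these filters; other causes were not tested. Quantile normalization moved the median CA1 minus DG difference of all positions from 0.25 to 0.06.

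Without 1 animal group at a time the counts were 2 to 8 for CB (8 without 10F, 2 without 10M and without 4F, 3 without 1F, 4M, 20F or 20M), 8 to 15 for hippocampus (8 without 4M, 9 without 20F), 12 to 31 for CA1 against DG (17, 15, 12 and 16 without 1F, 1M, 4F and 4M), 58 to 103 for the regions (58 without 4F, 66 without 4M, 69 without 10M, 73 without 1F, 80 without 1M or 20F), 0 to 1 for age, 0 to 1 for sex and 0 for the CB difference by age. With no replicate block, which pairs the regions of an animal group, the counts were 5, 14, 27 and 104, and 0 for the CB difference by age, so the block moved none by over 1.5 times.

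The shared minus other share near the start, −0.453 points, was 0.264 within 500 nt, −10.3 by TPM, 3.80 at 16 libraries and −4.37 at 32, and −0.764 to −0.238 without 1 animal group. The CB share difference was −2.72 within 100 nt and −8.81 to −6.37 without 1 animal group, and that of hippocampus 0.120 at 16 libraries, 0.668 at 32 and −2.22 to 0.867 without 1 animal group. The interior share of 43.1% was 47.1% at 32 libraries and 33.7% joined, and the share within 100 nt 35.7% at 16 libraries, 28.2% at 32 and 44.1% joined. Levels near the smallest listed values rest on a few tags, and a position at 0 there was not detectable rather than absent.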
